A study of Mus musculus with 24 samples.

Results

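TGF-beta and BMP signalling was described here through 49 genes of the mouse mammary gland, which were the probes that are not controls and whose gene name on the array was 1 of 49 listed names. They are 49 of 36610 gene names on the array. By role they are 16 ligands or ligand subunits, 11 receptors, 10 antagonists, 4 latency proteins and 8 Smads. The list has 93 probes, of which 82 passed the filter on dim signal described below, and these left 46 genes to test. The myostatin gene Mstn, the BMP antagonist Grem1 and the BMP-pathway mediator Smad9 had no probe that passed. Their probes were well above background on 5, 1 and 3 of the 24 arrays.

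The study compared the number 4 inguinal gland, freed of its lymph node, of C57BL/6 females that were homozygous wild-type (WT) or R96C SOCS2 knock-in (R96C SOCS2 KI, here knock-in). Wild-type virgins (n = 7) and knock-in virgins (n = 7) were 8 weeks old, and wild-type (n = 5) and knock-in (n = 5) pregnant mice were at day 18 of pregnancy. SOCS2 is a feedback inhibitor of cytokine receptors that signal through STAT5, among them those for growth hormone and prolactin. The age of the pregnant mice is not given in the labels, so pregnancy and age cannot be told apart. Genotypes were taken from the labels, since no probe can tell the R96C allele from the normal one. The series addresses what the R96C allele does to development and function of the gland.

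Ligands of the family are secreted dimers that bring together type I and type II receptor kinases. TGF-beta and activin receptors activate Smad2 and Smad3, BMP receptors activate Smad1, Smad5 and Smad9, and all of these act with Smad4, while Smad6 and Smad7 inhibit. TGF-beta ligands leave the cell in a latent complex with Ltbp proteins, and secreted antagonists such as chordin, noggin and follistatin bind BMPs or activins. In the mammary gland TGF-beta is known as a brake on ductal growth and on milk secretion, and its signals pass between epithelium and stroma.

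Levels are log2 signals relative to the 75th percentile of their array, and a difference is a difference of group means on that log2 scale with its standard error (SE) after ±. A gene was called changed at an adjusted p under 0.05 in limma over all 22389 genes tested. Levels of different genes come from different probes and were not compared. Between 33374 and 57003 of 59305 spots per array were well above background. The array of the knock-in virgin mouse 376 stood apart, with 57003 such spots and a negative-control signal of 332 units of scanner brightness against 19.4 to 41.4 on the others. That mouse had the lowest level of its group in 28 of the 46 tested members and the highest in 11. Among the 23 members whose level was lower in the rest of its group it lay above their median in 14, and among the 23 with a higher level in 0. The array of the knock-in pregnant mouse 184 had 43055 spots above background, and the knock-in virgin mouse 198 had the highest skeletal muscle and the lowest luminal marker level of its group. Counts are therefore also given without mice 376 and 184. Socs2 itself was measured at 1.58 ± 0.96 (SD, n = 7) in wild-type and 0.99 ± 0.74 (SD, n = 7) in knock-in virgins, and at 1.32 ± 0.29 (SD, n = 5) and 1.37 ± 0.22 (SD, n = 5) at day 18. These groups overlapped.

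The cell makeup of the gland moved with stage in the marker lists. Fibroblast markers were called lower in 9 of 9 genes in both genotypes, and their summed level ranged over 9.16 to 9.65 and 7.48 to 9.89 in virgins (wild-type, then knock-in) and over 7.59 to 8.34 and 7.54 to 8.58 at day 18. Adipocyte markers were called lower in 6 of 8 in both genotypes, with summed levels of 9.52 to 10.11, 7.67 to 10.00, 8.39 to 8.95 and 7.26 to 8.69 in the same order. Luminal markers were called higher in 7 of 12 genes in wild-type and 9 of 12 in knock-in mice, with levels of 5.69 to 8.24, 1.64 to 7.40, 8.24 to 8.59 and 8.07 to 8.84. Basal and myoepithelial markers were called higher in 5 of 8 and 8 of 8, with levels of 5.18 to 6.45, 4.14 to 6.86, 7.97 to 8.38 and 7.78 to 8.05. Macrophage markers were called lower in 5 of 5 genes in both. Skeletal muscle markers varied widely within groups, with summed levels of 2.75 to 10.02, 2.53 to 10.82, 2.30 to 4.20 and 1.37 to 9.43 in the same order. High levels were seen in wild-type virgin 320 (10.02), knock-in virgin 198 (10.82) and the knock-in pregnant mice 211 (9.43) and 184 (8.36). Of 71 markers tested over all lists, 0 were below background on every array of a group. Fewer cells of a type and less RNA per cell cannot be told apart in this bulk tissue, and the part of these lists in the results that follow was not tested.

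The first question was how the pathway differed between the virgin gland and the gland at day 18 of pregnancy. In wild-type mice most ligands were lower and TGF-beta 2 and 3 were higher, while the antagonists split between large rises and falls. In all, 28 of 46 members (60.9%) were called, 10 higher and 18 lower, against 41.8% of all genes, 20.9% of them higher and 20.9% lower. In knock-in mice 28 of 46 members were called, 13 higher and 15 lower, against 43.1% of all genes, 22.9% higher and 20.3% lower. Both genotypes called 10 members higher and 15 lower, 3 were called lower in wild-type mice alone and 3 higher in knock-in mice alone, 15 were called in neither, and 0 were called in opposite directions. The median difference over members was -0.25 for wild-type and -0.13 for knock-in mice, against 0.01 and 0.05 over all genes. Without mice 376 and 184 the knock-in median was -0.25, against 0.02 over all genes. Without mice 376 and 184 the counts were 35 members in wild-type mice, 14 higher and 21 lower, and 32 in knock-in mice, 12 higher and 20 lower, when 59.3% and 55.6% of all genes were called. The wild-type count moved because all 4 groups share the estimate of spread.

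**Figure D1:**
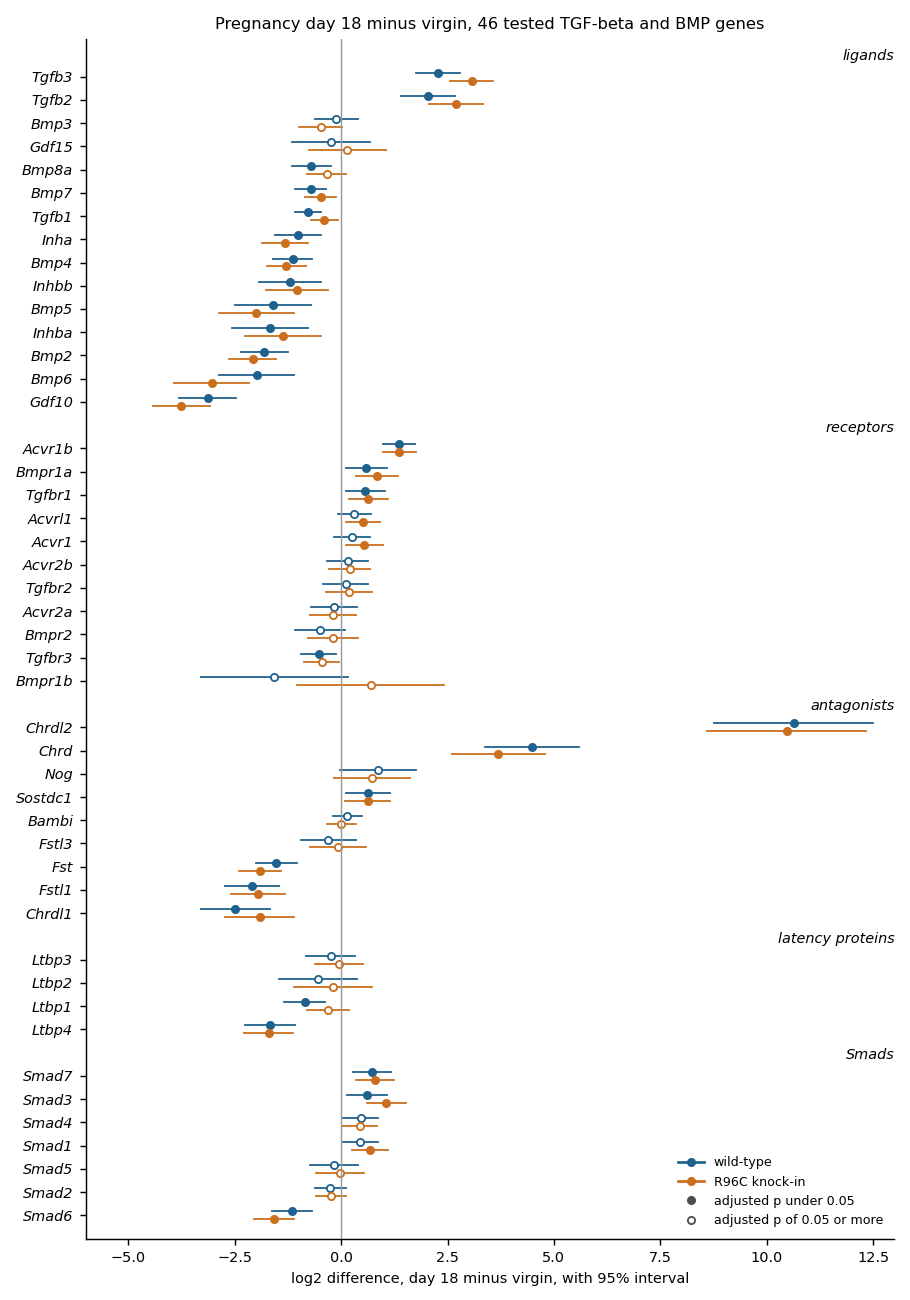
Log2 difference between pregnancy day 18 and virgin mice for the 46 tested members, grouped by role, in wild-type (blue) and knock-in mice (orange); bars are 95% intervals and filled points have an adjusted p under 0.05. Most ligands lie left of 0, Tgfb2 and Tgfb3 lie to the right, and Chrdl2 at 10.63 and 10.47 stands farthest from 0.

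In wild-type mice the levels of the 2 stages did not overlap for 26 members, 10 above and 16 below, against 39.2% of all genes, 20.3% above and 18.9% below. In knock-in mice this held for 7 above and 7 below, against 20.2% of all genes, 12.6% above and 7.65% below, and without mice 376 and 184 for 8 above and 15 below, against 39.1% of all genes in those mice, 19.3% above and 19.8% below. On each of the 3 slides, taken alone, the 28 members called in wild-type mice differed in the same direction as in the whole. The same held for 27 of 28 in knock-in mice, the exception being the BMP type I receptor Acvr1. Slide 1 held 1 wild-type and slide 3 held 1 knock-in pregnant mouse, so those values rest on single mice. The members were called from these same arrays, so the agreement between slides is a description and gives no separate support. Of 24 members with several kept probes, all probes had the same sign of the stage difference in 18 in wild-type mice and in 15 in knock-in mice.

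Among the ligands, 2 were called higher and 11 lower of 15 tested in wild-type mice, and 2 higher and 10 lower in knock-in mice. The shares of all genes were 20.9% higher and 20.9% lower in wild-type mice, and 22.9% and 20.3% in knock-in mice. The ligand median was -1.01 and -1.04, against the near-zero medians of all genes. With Inhba set at the bound given below, the knock-in median was -0.87. Ligands that rose were Tgfb2 and Tgfb3, and the 10 that fell in both genotypes were Tgfb1, Bmp2, Bmp4, Bmp5, Bmp6, Bmp7, Gdf10, Inha, Inhba and Inhbb. Bmp5 and Inhba passed the filter on dim signal through virgin groups alone, where their levels were higher. Their place in these counts is therefore limited by the filter.

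Tgfb3, a TGF-beta isoform known for its part in involution of the gland, ran from 1.51 to 3.07 (median 2.73) in wild-type virgins and from 1.02 to 2.46 (median 2.14) in knock-in virgins. Mouse 317 was the lowest of the wild-type virgins and mouse 376 of the knock-in virgins. At day 18 the wild-type mice were at 4.90, 4.83, 5.22, 4.83 and 4.62, and the knock-in mice at 4.73, 5.31, 4.97, 5.26 and 5.02. Every pregnant mouse lay above every virgin. The difference was 2.27 ± 0.25 in wild-type mice, 4.84-fold (adjusted p = 1.81e-07), and 3.07 ± 0.25 in knock-in mice, 8.39-fold (adjusted p = 2e-09). The difference between those 2 rises was 0.79 ± 0.35 and was not called (adjusted p = 1.0).

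Tgfb2, another isoform of this ligand, lay between -0.25 and 0.38 (median 0.29) in wild-type virgins and between -0.63 and 0.67 (median -0.19) in knock-in virgins. At day 18 the wild-type mice were at 2.60, 1.48, 1.64, 2.67 and 2.55 and the knock-in mice at 2.30, 3.13, 1.43, 3.61 and 2.43. No pregnant mouse reached down to a virgin level, and mouse 184 was the lowest of the knock-in pregnant mice. The rise was 2.04 ± 0.31 (4.11-fold, adjusted p = 1.42e-05) and 2.70 ± 0.31 (6.48-fold, adjusted p = 3.37e-07), and the other Tgfb2 probe gave 1.63 and 2.37.

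Tgfb1, the isoform made by many cell types including immune and stromal cells, moved the other way. It lay between -0.53 and 0.40 (median -0.24) in wild-type virgins, with mouse 369 highest, and between -0.41 and 0.01 (median -0.27) in knock-in virgins. Pregnant wild-type mice were at -1.09, -1.24, -1.02, -0.91 and -0.59, and knock-in mice at -0.42, -0.53, -0.69, -0.57 and -0.88. The stages did not overlap in either genotype, although in knock-in mice the lowest virgin was at -0.41 and the highest pregnant mouse at -0.42. The fall was -0.78 ± 0.15 (adjusted p = 0.000215) and -0.39 ± 0.15 (adjusted p = 0.0396). In knock-in mice that call was lost without any of 7 of the 24 mice, taken singly, with adjusted p up to 0.118.

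Of the BMP ligands, Bmp2, which drives bone and organ formation, ranged from -1.91 to -1.07 (median -1.23) in wild-type virgins and from -1.98 to -1.08 (median -1.26) in knock-in virgins. Pregnant wild-type mice were at -3.45, -2.89, -3.36, -3.15 and -3.00, and knock-in mice at -3.07, -4.11, -2.41, -4.48 and -3.23. All pregnant mice lay below all virgins. The fall was -1.81 ± 0.27 (adjusted p = 9.7e-06) for wild-type and -2.08 ± 0.27 (adjusted p = 1.45e-06) in knock-in mice.

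Bmp6, a BMP that also regulates iron through hepcidin, ran from -2.02 to -0.77 (median -1.45) and from -2.47 to -0.45 (median -1.10) in wild-type and knock-in virgins. Pregnant wild-type mice were close together at -3.67, -3.48, -3.24, -3.16 and -3.11, while knock-in mice spread over -2.89, -4.63, -3.63, -6.38 and -3.67. The stages did not overlap, and the probe was well above background on 3 of the 5 arrays of knock-in pregnant mice. The fall was -1.98 ± 0.43 (adjusted p = 0.00065) and -3.04 ± 0.43 (adjusted p = 5.03e-06).

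Bmp5, of the same subfamily as Bmp6 and Bmp7, was dimmer. It ran from -4.89 to -3.19 (median -3.85) in wild-type virgins and from -4.46 to -2.63 (median -3.91) in knock-in virgins, where mouse 376 was highest. Pregnant wild-type mice were at -5.36, -7.00, -4.95, -5.44 and -5.52 and knock-in mice at -5.18, -6.58, -4.77, -7.03 and -5.11, with 2 of 5 arrays above background in each group. The stages did not overlap in either genotype, and the fall was -1.61 ± 0.43 (adjusted p = 0.00409) and -1.99 ± 0.43 (adjusted p = 0.000622). With normexp background correction it was -0.11 (adjusted p = 0.629) and -0.20 (adjusted p = 0.359).

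Gdf10, also called Bmp3b, had the largest fall of any member in both genotypes. It ran from 1.53 to 2.73 (median 2.21) in wild-type virgins and from 0.48 to 2.26 (median 1.93) in knock-in virgins, where mouse 376 was lowest. At day 18 the wild-type mice were at -1.53, -0.82, -0.82, -0.56 and -1.34 and the knock-in mice at -1.71, -2.44, -1.58, -3.17 and -1.33. Pregnant mice lay below virgins without overlap, with mouse 239 lowest. The fall was -3.13 ± 0.32, 8.75-fold (adjusted p = 8.78e-08), and -3.75 ± 0.32, 13.5-fold (adjusted p = 5.88e-09). A dimmer Gdf10 probe was above background on 0 of 5 wild-type arrays at day 18 and gave a fall of at least 2.73-fold there, and of -2.58 in knock-in mice with 1 of 5 arrays above background. That knock-in value includes virgin 376, highest of its group for this probe at -2.29.

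Inhba, the beta A subunit of activin A, ran from -5.54 to -4.00 (median -4.25) in wild-type and from -5.24 to -2.66 (median -4.20) in knock-in virgins, with mouse 376 highest. Pregnant mice were at -6.33, -6.36, -7.14, -4.94 and -6.06 in wild-type and -5.44, -6.44, -4.15, -5.37 and -5.67 in knock-in animals, and the stages overlapped in both genotypes. The probe was above background on 1 of 5 wild-type and 0 of 5 knock-in arrays at day 18. The wild-type difference was -1.67 ± 0.43 (adjusted p = 0.00308). In knock-in mice the fall came to at least 1.82-fold (adjusted p = 0.0129), where the at-least fold sets the dim arrays at their lowest signal above background. That bound uses a virgin mean that includes mouse 376 at -2.66, against a median of -4.24 in the rest of its group. It is therefore not a firm minimum. With normexp correction the Inhba differences were 0.11 and 0.02, of the opposite sign.

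The remaining ligands moved less. Bmp4, which patterns the mammary mesenchyme, fell by 1.14 and 1.29, the inhibin alpha subunit Inha by 1.01 and 1.33, the activin beta B subunit Inhbb by 1.20 and 1.04, and Bmp7 by 0.72 and 0.48. The Bmp4 calls did not pass in every alternative fit, though they held with any single mouse left out. Bmp8a fell in wild-type mice at -0.70 ± 0.22 (adjusted p = 0.0134) and was at -0.34 ± 0.22 in knock-in mice (adjusted p = 0.234). Bmp3, a BMP that opposes the others in bone, was at -0.11 ± 0.24 and -0.48 ± 0.24, and the stress-induced family member Gdf15 at -0.24 ± 0.44 and 0.14 ± 0.44. Neither Bmp3 nor Gdf15 was called in either genotype. In knock-in mice the Bmp7 call was lost without mouse 198, 211, 210 or 239 (adjusted p up to 0.133), the Inhbb call without mouse 184 (0.0539) and the Inhba call without mouse 210 (0.0548).

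**Figure D2:**
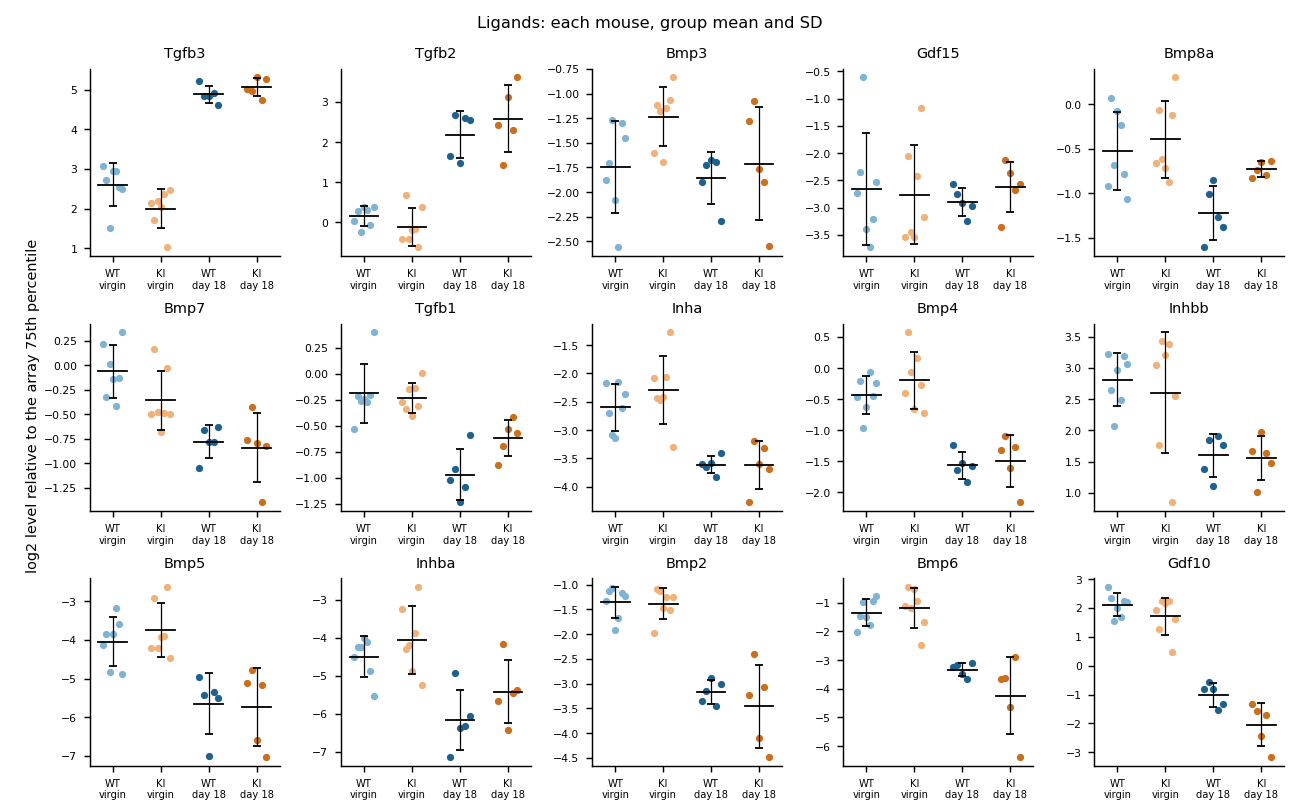
Level of the 15 tested ligands in each mouse, as log2 signal relative to the array's 75th percentile, with a point per mouse, the group mean as a line and the SD as a bar. Tgfb3 and Tgfb2 sit higher in all pregnant mice, and Gdf10, Bmp2 and Bmp6 sit lower in all pregnant mice.

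Of 11 receptors, 3 were called higher and 1 lower in wild-type mice, and 5 higher and 0 lower in knock-in mice, near the shares of all genes called (41.8% and 43.1%). Acvr1b, the type I receptor for activin also named ALK4, ran from 0.25 to 0.87 (median 0.67) in wild-type and from -0.04 to 1.37 (median 0.59) in knock-in virgins. At day 18 the levels were 1.98, 2.18, 2.33, 1.98 and 1.67 in wild-type and 1.71, 2.20, 1.93, 1.92 and 2.16 in knock-in mice. Pregnant mice were above virgins without overlap, and the difference was 1.36 ± 0.19 (2.57-fold, adjusted p = 3.65e-06) and 1.37 ± 0.19 (2.58-fold, adjusted p = 3.09e-06). A dimmer Acvr1b probe gave 1.00 in wild-type mice (adjusted p = 0.0318 over all probes). In knock-in mice it gave 0.58, which was not called (adjusted p = 0.218).

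The TGF-beta type I receptor Tgfbr1 was called higher at 0.57 ± 0.22 (adjusted p = 0.0407) and 0.64 ± 0.22 (adjusted p = 0.0214), but its other probes gave -0.01 and -0.19 in wild-type mice. The BMP type I receptor Bmpr1a was called higher at 0.59 ± 0.24 (adjusted p = 0.0471) and 0.85 ± 0.24 (adjusted p = 0.0055). The knock-in value includes virgin 376, lowest of its group for Bmpr1a at -0.53 against a median of 1.25 in the rest. Acvr1 and Acvrl1, type I receptors that serve BMPs, were called in knock-in mice alone, at 0.55 ± 0.21 (adjusted p = 0.0355) and 0.51 ± 0.19 (adjusted p = 0.0335), and their wild-type values were 0.26 ± 0.21 and 0.31 ± 0.19. Other probes gave 0.29 and -0.59 for Acvr1 and -0.14 for Acvrl1 in knock-in mice, none of them called. By the probes that stood for the genes, virgin 376 was lowest of its group, at 0.92 for Acvr1 and -0.13 for Acvrl1. The medians of the rest of that group were 2.38 and 1.08. The difference between the genotypes in these rises was not called for either gene. The co-receptor Tgfbr3, or betaglycan, was called lower in wild-type mice at -0.53 ± 0.20 (adjusted p = 0.036) and was at -0.46 ± 0.20 in knock-in mice (adjusted p = 0.067). The type II receptors, which bind ligand and switch on the type I kinase, gave no call. Their differences in wild-type and knock-in mice were 0.10 and 0.18 for Tgfbr2, -0.50 and -0.20 for Bmpr2, -0.17 and -0.20 for Acvr2a and 0.15 and 0.21 for Acvr2b.

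Of these receptor values, those of Tgfbr1, Tgfbr2, Acvr1, Acvrl1 and Acvr2b in both genotypes and of Bmpr1a in wild-type mice were below 0 under spike-in scaling. Leaving out single mice ended several receptor calls. It ended the wild-type call of Bmpr1a in 21 of 24 cases, of Tgfbr1 in 8 and of Tgfbr3 in 7, with adjusted p up to 0.110 for Tgfbr1. In knock-in mice the Acvr1 call was lost without mouse 210, 239 or 183, the Acvrl1 call without mouse 210, 184, 239 or 183 and the Tgfbr1 call without mouse 184 or 183. Bmpr1b, a further BMP type I receptor, was above background on 6 of 7, 3 of 7, 1 of 5 and 3 of 5 arrays of wild-type virgins, knock-in virgins, wild-type and knock-in pregnant mice. Its levels ran from -6.45 to -2.77 (median -5.10) in wild-type virgins and from -6.72 to -0.79 (median -6.29) in knock-in virgins. At day 18 Bmpr1b was at -7.41, -6.44, -6.76, -5.12 and -6.20 in wild-type and at -3.53, -4.40, -2.96, -5.42 and -6.39 in knock-in mice. The stages overlapped, and differences of -1.57 ± 0.84 and 0.69 ± 0.84 were not called.

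Of 9 antagonists tested, 3 were called higher and 3 lower in each genotype. Of all genes, 20.9% were called higher and 20.9% lower in wild-type mice, and 22.9% and 20.3% in knock-in mice. Chrdl2, Chrd and Sostdc1 rose, Sostdc1 being below 0 under spike-in scaling, and Chrdl1, Fst and Fstl1 fell.

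Chrdl2, a chordin-like protein that binds BMPs, ran from -6.99 to -3.50 (median -5.21) in wild-type and from -8.03 to -0.68 (median -6.35) in knock-in virgins, with mouse 376 highest. Pregnant wild-type mice were at 5.48, 6.10, 5.80, 5.08 and 5.15 and knock-in mice at 4.99, 5.52, 5.54, 5.65 and 5.57. Every pregnant mouse lay far above every virgin, and only 4 of 7 wild-type and 3 of 7 knock-in virgin arrays were above background. The difference was 10.63 ± 0.90 in wild-type (adjusted p = 4.87e-09) and 10.47 ± 0.90 in knock-in mice (adjusted p = 5.89e-09). Since many virgin arrays did not measure it, the size of this difference depends on values near background. The Chrdl2 probe passed the filter on dim signal through the day 18 groups alone, where its level was higher.

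Chrd, the gene of the BMP antagonist chordin, had probes that disagreed. By its brighter probe it ran from -4.39 to -3.78 (median -3.99) in wild-type virgins and from -4.67 to -0.0026 (median -3.90) in knock-in virgins, where mouse 376 was highest and the next was at -3.50. At day 18 Chrd was at 0.02, 0.64, 1.47, -0.19 and 0.22 in wild-type and at 0.20, 0.05, 1.21, -0.66 and 0.43 in knock-in mice. The wild-type stages did not overlap, and in knock-in mice only mouse 376 reached the pregnant range. The rise was 4.49 ± 0.53, 22.5-fold (adjusted p = 6.1e-07), and 3.70 ± 0.53 (adjusted p = 7.02e-06), and without mice 376 and 184 the knock-in value was 4.03.

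The dimmer Chrd probe went the other way. It ran from -4.55 to -4.16 (median -4.35) in wild-type virgins and from -4.54 to -1.53 (median -4.17) in knock-in virgins, where mouse 376 was highest and the next was at -3.84. At day 18 it was at -5.26, -5.69, -5.65, -6.55 and -6.40 in wild-type mice, with 0 of 5 arrays above background, and at -5.64, -4.72, -4.03, -5.93 and -5.15 in knock-in mice, with 1 of 5. Its fall was at least 1.90-fold in wild-type mice and -1.29 in knock-in mice (adjusted p = 0.0119 over all probes). That knock-in value includes virgin 376, which makes the fall larger. Averaging the probes gave rises of 1.45 and 1.20 in place of 4.49 and 3.70. The probe sequences, 5′ to 3′ on the plus strand of mm9, are shown because they read different stretches of the locus. Per the array file, the brighter probe takes 60 bases from chr16:20739049-20739221, a span of 173 bases and so across a splice junction, at position 2277 of a RefSeq transcript. The dimmer probe lies in an unbroken stretch at chr16:20738166-20738225, at position 2357 of an Ensembl transcript, and its last 30 bases are shown with the hexamer AATAAA in capitals. That hexamer is the common signal for cleavage and polyadenylation of transcripts; it was found 1 time in the dimmer and 0 times in the brighter probe, and 9.77% of all 56605 probes of that length hold it on the strand shown.
Chrd brighter probe: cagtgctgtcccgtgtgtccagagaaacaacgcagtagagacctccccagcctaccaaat
Chrd dimmer probe, last 30 bases: atacacataAATAAAatgatataaaaaccc

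Sostdc1, a secreted antagonist of BMP and WNT signals also known as ectodin, ran from -1.79 to -0.38 (median -1.32) in wild-type and from -2.66 to -1.23 (median -2.14) in knock-in virgins. Pregnant wild-type mice were at -0.61, -0.28, -0.10, -1.06 and -0.83 and knock-in mice at -1.74, -1.45, -1.34, -1.41 and -1.31. The stages overlapped in both genotypes. The rise was 0.64 ± 0.25 (adjusted p = 0.0461) and 0.62 ± 0.25 (adjusted p = 0.0492), and either call was lost in 15 of the 24 fits that left out a mouse (adjusted p up to 0.138 and 0.0971). Under spike-in scaling Sostdc1 was at -0.28 and -0.21.

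Chrdl1, the other chordin-like BMP binder, went opposite to Chrdl2. It ran from 0.04 to 1.55 (median 0.95) in wild-type and from -0.13 to 1.61 (median 1.09) in knock-in virgins. At day 18 Chrdl1 was at -1.54, -1.23, -2.60, -0.87 and -1.80 in wild-type and at 0.10, -1.77, -0.53, -2.34 and -0.35 in knock-in mice. Wild-type stages did not overlap, and in knock-in mice virgin 376 lay among the pregnant mice. The fall was -2.48 ± 0.39 (5.59-fold, adjusted p = 2.2e-05) and -1.91 ± 0.39 (3.77-fold, adjusted p = 0.000356).

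Fst, or follistatin, which neutralises activin, ran from -0.28 to 0.60 (median 0.37) and from -0.38 to 1.24 (median 0.66) in wild-type and knock-in virgins. Pregnant mice were at -1.17, -1.22, -1.37, -1.52 and -1.17 in wild-type and -0.88, -1.61, -1.27, -1.39 and -1.89 in knock-in animals, all below every virgin. The fall was -1.52 ± 0.23 (adjusted p = 1.75e-05) and -1.91 ± 0.23 (adjusted p = 8.63e-07).

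Fstl1, a secreted follistatin-like glycoprotein of mesenchymal cells, ran from 5.36 to 6.20 (median 5.64) and from 4.08 to 6.18 (median 5.69) in wild-type and knock-in virgins. At day 18 Fstl1 was at 3.05, 3.69, 3.74, 3.91 and 3.65 in wild-type and at 3.75, 2.76, 4.02, 2.96 and 4.36 in knock-in mice. Wild-type stages did not overlap, and virgin 376 at 4.08 lay among the knock-in pregnant mice. The fall was -2.09 ± 0.31 (adjusted p = 1.13e-05) and -1.95 ± 0.31 (adjusted p = 2.42e-05). The dimmest Fstl1 probe moved less, from medians of -1.59 and -1.49 in wild-type and knock-in virgins to -2.19 and -2.06 at day 18. Another probe went from medians of 4.67 and 4.89 to 2.83 and 3.11. The antagonists without a call were noggin, Nog, at 0.88 ± 0.43 and 0.73 ± 0.43, Fstl3 at -0.30 ± 0.32 and -0.07 ± 0.32, and the decoy receptor Bambi at 0.15 ± 0.17 and 0.00 ± 0.17.

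**Figure D3:**
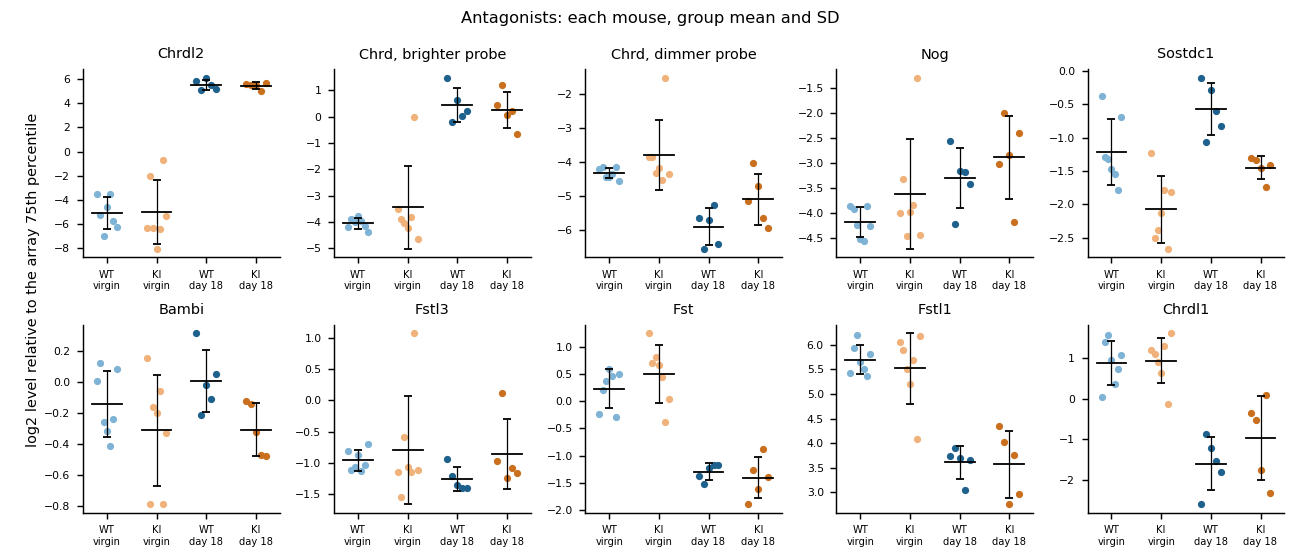
Level of the 9 tested antagonists in each mouse, with Chrd shown for each of its probes, as log2 signal relative to the array's 75th percentile; points are mice, lines are group means and bars are SDs. Chrdl2 and the brighter Chrd probe rise in pregnant mice, the dimmer Chrd probe, Fst, Fstl1 and Chrdl1 are lower, and the highest knock-in virgin in the Chrdl2, Chrd, Nog and Fstl3 panels is mouse 376.

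Among latency proteins, 2 of 4 were called lower in wild-type and 1 of 4 in knock-in mice, against 20.9% and 20.3% of all genes called lower. Ltbp4, which anchors latent TGF-beta 1 to elastic fibres, ran from 3.59 to 4.63 (median 4.17) and from 2.41 to 4.60 (median 4.26) in wild-type and knock-in virgins, with mouse 376 lowest. At day 18 Ltbp4 was at 2.07, 2.72, 2.35, 2.49 and 2.59 in wild-type and at 2.61, 1.93, 2.50, 1.73 and 2.60 in knock-in mice. Only mouse 376 among the virgins came within the pregnant range. The fall was -1.66 ± 0.28 (3.17-fold, adjusted p = 5.27e-05) and -1.70 ± 0.28 (3.26-fold, adjusted p = 3.76e-05). Neither Ltbp4 call passed in every alternative fit, though both held with any single mouse left out. Ltbp1 was called lower in wild-type mice at -0.86 ± 0.24 (adjusted p = 0.0051) and was at -0.31 ± 0.24 in knock-in mice (adjusted p = 0.307). Ltbp2 and Ltbp3 were not called, at -0.55 ± 0.44 and -0.25 ± 0.27 in wild-type and -0.19 ± 0.44 and -0.04 ± 0.27 in knock-in mice.

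Of 7 Smads tested, which carry or restrain the signal on its way to the nucleus, 2 were called higher and 1 lower in wild-type mice and 3 higher and 1 lower in knock-in mice. The shares of all genes called were 41.8% in wild-type mice, 20.9% higher and 20.9% lower. In knock-in mice they were 43.1%, 22.9% higher and 20.3% lower. Smad3, the TGF-beta and activin mediator, ran from 1.69 to 2.20 (median 1.99) in wild-type and from 0.38 to 2.08 (median 1.87) in knock-in virgins. At day 18 Smad3 was at 2.29, 2.80, 3.05, 2.40 and 2.30 in wild-type and at 2.59, 2.95, 2.63, 2.94 and 2.63 in knock-in mice. Pregnant mice were above virgins without overlap, and virgin 376 was the lowest of all. The rise was 0.61 ± 0.22 (adjusted p = 0.0313), at -0.31 under spike-in scaling, and 1.07 ± 0.22 (adjusted p = 0.000492), and the wild-type call was lost without mouse 317, 318, 233 or 206 (adjusted p up to 0.109).

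Of the inhibitory Smads, Smad6, which mainly restrains BMP signals, fell by 1.16 and 1.58 (adjusted p = 0.000225 and 5.75e-06). Its levels were -1.64 ± 0.17 (SD, n = 7) and -1.34 ± 0.36 (SD, n = 7) in wild-type and knock-in virgins and -2.80 ± 0.34 (SD, n = 5) and -2.92 ± 0.59 (SD, n = 5) at day 18. Smad7, which restrains TGF-beta and BMP signals alike, rose by 0.73 ± 0.21 (adjusted p = 0.00793) and 0.79 ± 0.21 (adjusted p = 0.00429) but was at -0.18 and -0.04 under spike-in scaling, while its other probe gave -0.21 in knock-in mice, which was not called. The BMP mediator Smad1 was called higher in knock-in mice at 0.67 ± 0.20 (adjusted p = 0.00954, but -0.16 under spike-in scaling) and was at 0.45 ± 0.20 in wild-type mice (adjusted p = 0.0758). Virgin 376 had the lowest Smad1 level of its group, at 0.90 against a median of 2.11 in the rest. For Smad7 the same mouse was lowest, at -2.71 against a median of -1.20. Smad2, Smad4 and Smad5 were not called, with differences of -0.25, 0.46 and -0.17 in wild-type and -0.23, 0.44 and -0.03 in knock-in mice.

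Directions of the small changes depended on how arrays were scaled. Scaling to the spiked-in control RNAs moved the median of all genes to -0.91 for wild-type and -0.78 for knock-in mice. The median of the members then lay at -1.17 and -0.97, which is -0.26 and -0.19 relative to all genes, and the calls became 4 higher and 34 lower in wild-type and 4 higher and 28 lower in knock-in mice, when 66.2% and 58.2% of all genes were called. Chrdl2, Chrd, Tgfb2 and Tgfb3 stayed higher in each genotype, and Acvr1b was at 0.45 and 0.53 without a call. Tgfbr1, Tgfbr2, Acvr1, Acvr2b, Acvrl1, Nog, Sostdc1, Bambi, Smad1, Smad4 and Smad7 had the opposite sign in both genotypes, Bmpr1a and Smad3 in wild-type mice, and Bmpr1b and Gdf15 in knock-in mice. Of the calls of higher genes, those of Tgfbr1, Sostdc1 and Smad7 in both genotypes, Bmpr1a and Smad3 in wild-type mice and Acvr1, Acvrl1 and Smad1 in knock-in mice thus turned sign relative to the spiked-in RNA, and Acvr1b lost its call. The 10 wild-type calls that passed in each alternative fit, spike-in scaling and every single mouse left out included, were those of Tgfb2, Tgfb3, Bmp2, Gdf10, Chrd, Chrdl1, Chrdl2, Fst, Fstl1 and Smad6. In knock-in mice 12 did so, the same 10 with Bmp6 and Inha.

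**Figure D4:**
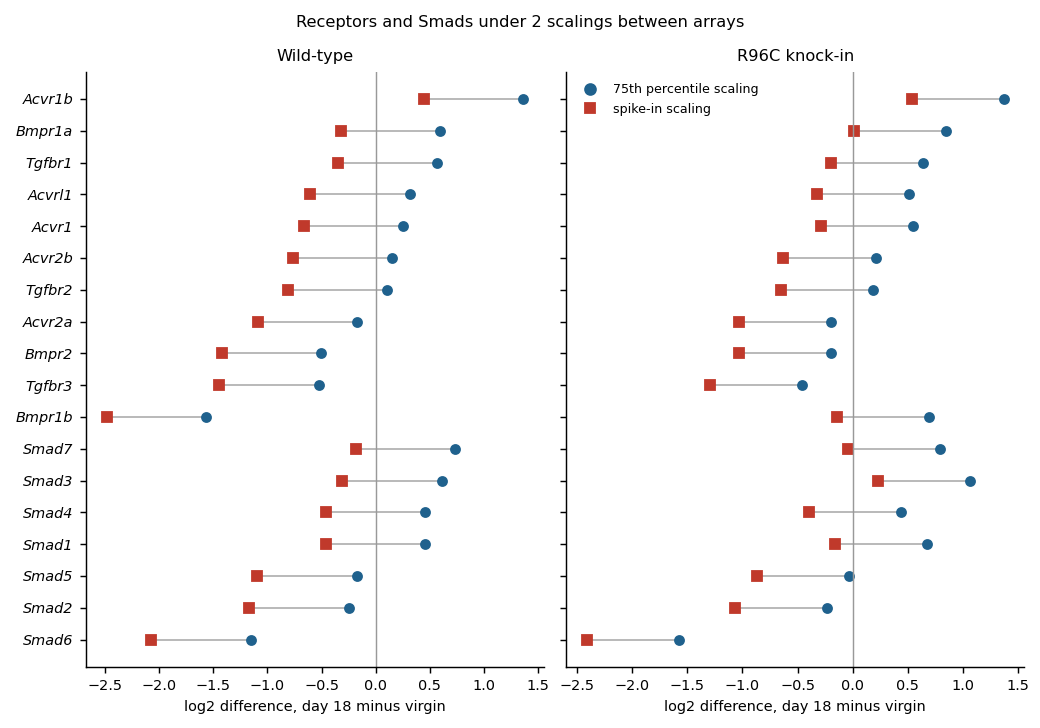
Log2 difference between day 18 and virgin mice for the receptors and Smads under 75th-percentile scaling (blue circles) and spike-in scaling (red squares), for wild-type mice on the left and knock-in mice on the right. The squares lie left of the circles by nearly the same distance for each gene, and most small rises cross 0. Acvr1b stays above 0 in both genotypes, as do Smad3 and, barely, Bmpr1a in knock-in mice, and Smad6 stays below it.

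Promoter sequence was then set beside the members that moved. RefSeq promoter windows (250 bases before to 50 after a gene's start, GRCm38.p6) were found for 34 of 49 members, in 43 windows. In all, 3 motifs that read the same on both strands were searched. GGCGCC, a sequence bound by BMP-activated Smads, was in 12 windows of 10 members, against 11.9% of all 32851 windows; these were Acvr1b, Bmpr1a, Bmpr2, Chrd, Gdf10, Grem1, Ltbp4, Smad5, Smad9 and Tgfbr1. GTCTAGAC, the palindromic Smad-binding element, was in 1 window, that of Smad6, against 0.213% of all windows. TTCNNNGAA, the STAT5-type element, was in 0 of the 43 windows, against 8.30% of all. Of the motif holders, Acvr1b, Chrd, Bmpr1a and Tgfbr1 were called higher in both genotypes and Gdf10, Ltbp4 and Smad6 lower, so the letters occurred in genes of either direction. A match here is a description of letters and does not show that a factor binds. The windows of Smad6 (chr9:64022010-64022309, minus strand, match from position -4 of the start), Chrd (chr16:20732877-20733176, plus strand, from -203) and Gdf10 (chr14:33923337-33923636, plus strand, from 16) are shown as a unique match, a gene that rose and a gene that fell, with the motif in capitals.
Smad6: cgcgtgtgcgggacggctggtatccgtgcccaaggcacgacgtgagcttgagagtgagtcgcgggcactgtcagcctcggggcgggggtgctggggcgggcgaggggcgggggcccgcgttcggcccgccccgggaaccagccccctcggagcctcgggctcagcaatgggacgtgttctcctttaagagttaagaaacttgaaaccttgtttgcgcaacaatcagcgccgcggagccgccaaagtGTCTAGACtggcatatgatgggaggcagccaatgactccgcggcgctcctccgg
Chrd: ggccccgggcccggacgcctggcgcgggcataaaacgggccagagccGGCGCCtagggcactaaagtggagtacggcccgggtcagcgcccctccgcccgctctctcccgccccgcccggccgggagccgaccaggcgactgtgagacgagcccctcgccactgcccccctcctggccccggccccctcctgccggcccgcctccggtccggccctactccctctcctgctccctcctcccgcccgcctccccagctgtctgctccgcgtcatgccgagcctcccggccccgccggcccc
Gdf10: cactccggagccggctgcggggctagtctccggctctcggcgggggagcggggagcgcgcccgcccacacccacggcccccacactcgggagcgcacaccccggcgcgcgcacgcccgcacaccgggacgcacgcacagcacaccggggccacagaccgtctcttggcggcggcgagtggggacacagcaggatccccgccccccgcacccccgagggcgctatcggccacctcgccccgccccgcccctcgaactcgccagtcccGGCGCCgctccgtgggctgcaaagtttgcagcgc

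Other genes of the pathway were taken from a list of 86 names outside the 49, of which 66 were tested. In wild-type mice 7 were called higher and 29 lower and in knock-in mice 9 higher and 29 lower, with medians of -0.53 and -0.42. Of all genes 20.9% were called higher and 20.9% lower in wild-type and 22.9% and 20.3% in knock-in mice, with medians of 0.01 and 0.05. Among the largest changes called in both were the BMP-family ligand Gdf5, which rose by 3.50 ± 0.51 and 3.43 ± 0.51, and falls of the matrix protein and TGF-beta target Fn1 (-2.97 ± 0.40 and -3.20 ± 0.40), the nodal and activin receptor Acvr1c (-3.17 ± 0.43 and -2.94 ± 0.43), the BMP-binding protein Bmper (-2.84 ± 0.38 and -2.96 ± 0.38) and the BMP target Msx2 (-3.03 ± 0.54 and -2.52 ± 0.54).

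Of 18 known direct targets tested, 2 were called higher and 11 lower in each genotype, against 20.9% and 20.3% of all genes called lower. The BMP targets Id1 and Id3, inhibitors of helix-loop-helix factors, fell by 1.35 and 1.88 in wild-type and by 1.66 and 2.09 in knock-in mice. Their relative Id2 rose by 1.90 and 2.41, and Id4 was not called, at 0.16 and 0.55. Msx1 was lower at -1.43 and -1.49, Hey1 at -1.82 and -2.18 and Atoh8 at -1.49 and -2.35. Among TGF-beta targets Ccn2 rose by 1.41 and 1.30, while the matrix genes Col1a1 (-1.42 and -0.99) and Tgfbi (-1.37 and -1.10) and the cell-cycle inhibitors Cdkn2b (-1.46 and -1.77) and Cdkn1a (-1.24 and -0.82) were lower. Ccn1 (-0.76 and -0.37), Klf10 (0.17 and 0.06) and Tsc22d1 (0.38 and 0.71) were not called. Col1a1 is also among the fibroblast markers that fell with stage.

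The second question was whether the R96C allele changed the pathway. In limma, 0 of 46 members were called in virgins, at day 18, in the interaction of genotype and stage or in the average over stages, against 0% of all genes in each. At an unadjusted p under 0.05 there were 3, 4, 1 and 2 members in that order, among 802, 441, 228 and 1160 of 22389 genes. Fits without mice 376 and 184, and those with other scalings, also called 0 members. The median genotype difference over members was -0.13 in virgins and -0.02 at day 18, against -0.05 and -0.0008 over all genes. Without mice 376 and 184 the member medians were 0.02 and -0.03, and those of all genes 0.02 and -0.03. With all mice, single members ran from -0.86 to 0.60 in virgins and from -1.03 to 1.85 at day 18.

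Sostdc1, the BMP and WNT antagonist, had the smallest p of the members at either stage and in the average. In virgins it was lower in knock-in mice by -0.86 ± 0.23, with a 95% interval from -1.34 to -0.39 (adjusted p = 0.702), and at day 18 by -0.87 ± 0.27, from -1.44 to -0.31 (adjusted p = 1.0). Virgin levels overlapped between genotypes. At day 18 all 5 knock-in mice lay below all 5 wild-type mice, which held downwards for 1 member, against 0.808% of all genes downwards, 0.442% upwards and 1.25% in either direction. In virgins 0 members were without overlap, against 0.0134% of all genes, 0.00893% upwards and 0.00447% downwards. The average over stages was -0.87 ± 0.18 (1.83-fold, unadjusted p = 6.5e-05, adjusted p = 0.651), and over the alternatives that did not leave out a single mouse the adjusted p ran from 0.233 to 0.864. Sostdc1 was lower in knock-in mice within each of the 3 slides at both stages, which describes the same arrays that gave it the smallest p. Luminal markers had a median genotype difference of -1.17 in virgins over 12 genes, with 0 called, and of 0.02 at day 18, and basal markers of -0.60 and -0.21 over 8 genes, with 0 called. In virgins the mean level of the luminal list differed by -1.12, which became -0.42 without mouse 198 and -0.29 without mice 198 and 376, and that of the basal list by -0.51, which became -0.20 and 0.06. Sostdc1 was at -0.79 in virgins without mouse 198 and at -0.66 without mice 198, 376 and 184. The part of these markers in the Sostdc1 values was not tested.

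Other members had larger p. Gdf10 was lower in knock-in mice at day 18 by -1.03 ± 0.35 (95% interval -1.75 to -0.31, adjusted p = 1.0), and the groups overlapped; its other probe was above background on 0 of 5 wild-type and 1 of 5 knock-in arrays there and gives no comparison. Tgfb3 was lower in knock-in virgins by -0.61 ± 0.23 (-1.08 to -0.15, adjusted p = 0.702). That value includes virgin 376 at 1.02, against a median of 2.17 in the rest of its group, and wild-type virgin 317, lowest of its group at 1.51. In knock-in virgins Bmp3 was higher by 0.52 ± 0.22 (0.05 to 0.98, adjusted p = 0.702). Bmp3 ran from -2.56 to -1.27 (median -1.70) in wild-type and from -1.69 to -0.83 (median -1.15) in knock-in virgins, and at day 18 was at -1.70, -1.67, -1.89, -1.73 and -2.30 and at -1.89, -1.76, -1.08, -2.54 and -1.28, so the genotypes overlapped at either stage. Bmp8a at day 18 was higher in all 5 knock-in mice, from -0.83 to -0.64, than in all 5 wild-type mice, from -1.61 to -0.85, and it was not called (adjusted p = 1.0). Tgfb1 was at 0.35 ± 0.16 at day 18 (0.01 to 0.69, adjusted p = 1.0). For Bmpr1b the genotype difference at day 18 was 1.85 ± 0.90 (-0.02 to 3.72, adjusted p = 1.0). Skeletal muscle markers had a median genotype difference of 3.80 at day 18 over 6 genes, with 0 called. The part of these markers in the Bmpr1b value was not tested.

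**Figure D5:**
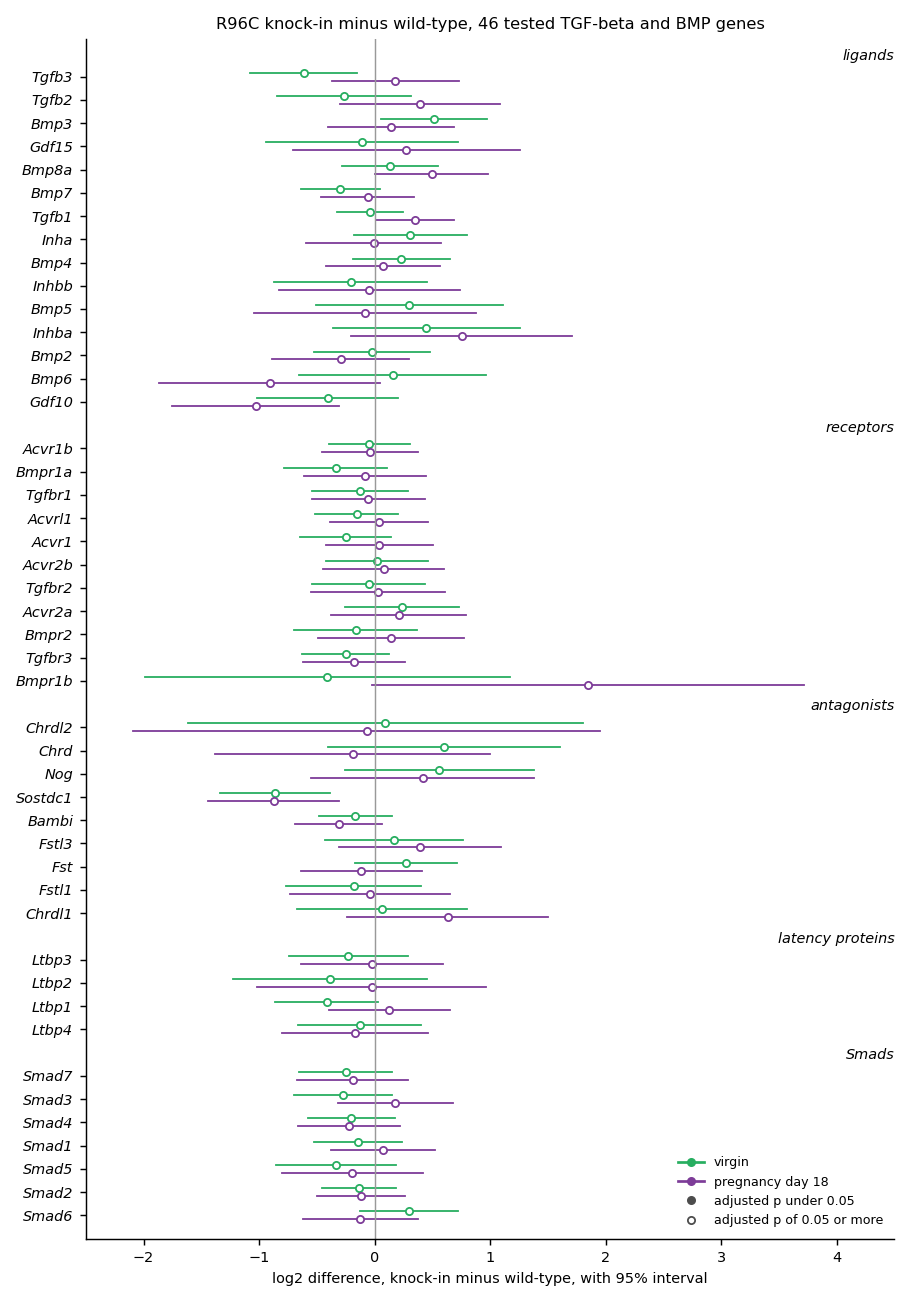
Log2 difference between knock-in and wild-type mice for the 46 tested members, grouped by role, in virgins (green) and at pregnancy day 18 (purple), with 95% intervals; open points have an adjusted p of 0.05 or more. No point is filled, and Sostdc1 is the member whose intervals lie below 0 at both stages, at -0.86 and -0.87.

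The stage differences of the 2 genotypes, which use separate mice, were alike in order. Across the 46 members Pearson's r was 0.97 and Spearman's rho 0.92, and without Chrdl2 they were 0.94 and 0.92, with 44 of 46 members of the same sign. The points share arrays, probes and scaling and are not independent, so these are descriptions without a p. The exceptions in sign were Bmpr1b and Gdf15, and neither was called.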

How the data were processed

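RNA of 24 mammary glands was labelled with Cy3 and hybridised to 1-colour Agilent mouse arrays with 8 arrays per slide, 1 mouse per array. The labels call the molecule polyA RNA, while their labelling protocol starts from total RNA. The files deposited by the authors give spot intensity on a linear scale from Agilent Feature Extraction 12.0.3.2, per the file headers, together with background flags and other marks per spot, and a deposited value table that was found to hold log10 of the same processed signal (largest difference 0.0050 over 62969 features, column medians 1.31 to 3.23). It is neither centred nor scaled between arrays.

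From these files, log2 of the processed signal was taken minus the 75th percentile of the spots of each array that are not controls, and flagged outlier spots were left out (162 values missing in the fit, 0 of them for members). Spots of a probe were averaged. Probes were kept if flagged as above background in 80% or more of any group's arrays, which left 35117 of 56605 probes, and the brightest kept probe stood for a gene. Group means of all 24 arrays were fitted with lmFit and eBayes (limma 3.58.1, R 4.3.3), and p-values were adjusted by Benjamini-Hochberg over 22389 genes. All adjusted p-values in the text are from limma. The number of arrays limits the precision. For a probe below background on every array of a group, a fold is a bound (at least), set by the lowest signal well above background. The fits were tested on simulated data.

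The members and the lists of markers and pathway genes were chosen with earlier results of these data known. Every member could be named; those described mouse by mouse were Tgfb1, Tgfb2, Tgfb3 and Smad3, the 14 with the largest stage difference called in both genotypes, and the 3 with the smallest p in each of the genotype comparisons and the interaction. Of the pathway genes outside the list, values were given for the 6 largest and for the direct targets, less a few genes that are not reported here. Motifs were searched in RefSeq promoter windows (GRCm38.p6). Probe coordinates are those of mm9, per the file headers. The alternatives were background correction, scaling, filter, probe choice, slide, array weights, variance prior, the deposited table and mice left out. Overlap counts without mice 376 and 184, and marker levels without mice 198 and 376, were chosen after seeing the data.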

Additional observations from a re-analysis of the deposited data

Results flagged for a closer look

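Within each group of a member described mouse by mouse, the highest or lowest mouse was set against the nearest other by Dixon's test. Of 76 groups tested, 8 held a mouse that stood apart, where chance gives about 3.8. In 4 of the 8 it was the knock-in virgin 376, whose array had a high negative-control signal: Smad3 at 0.38 (nearest mouse 1.74), Chrd at -0.0026 (nearest -3.50), Ltbp4 at 2.41 (nearest 3.91) and Bmpr1b at -0.79 (nearest -4.68).

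The others came from different mice. Tgfb1 in the wild-type virgin 369 was at 0.40 against -0.20 in the nearest mouse. Tgfb3 in the wild-type virgin 317 was at 1.51 against 2.49. Chrdl2 in the knock-in pregnant mouse 211 was at 4.99 against 5.52. Bmp5 in the wild-type pregnant mouse 233 was at -7.00 against -5.52, in a group with 2 of 5 arrays above background for Bmp5.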

How the results depend on the processing

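With the median of each array as the scale, the members called fell to 15 (wild-type) and 16 (knock-in), and the share of all genes called to 23.7% and 22.6%, from 41.8% and 43.1%. Among differences called under either scaling, spike-in scaling reversed those in wild-type and knock-in mice for Tgfbr1 (-0.35 and -0.20), Acvr1 (-0.66 and -0.29), Acvr2b (-0.77 and -0.63), Acvrl1 (-0.60 and -0.32), Sostdc1 (-0.28 and -0.21), Bambi (-0.77 and -0.83), Smad1 (-0.46 and -0.16) and Smad7 (-0.18 and -0.040), and in wild-type mice for Tgfbr2 (-0.81), Bmpr1a (-0.32) and Smad3 (-0.31). It also turned the sign of differences called under neither, those of Nog and Smad4 in both genotypes and of Tgfbr2, Bmpr1b and Gdf15 in knock-in mice. The share of higher genes among all called then fell to 7.72% and 10.5%, from 50.1% and 53.0%. Normexp correction reversed Inhba (0.11 and 0.024). The cause was not tested. Leaving out single mice gave 23 to 35 called members for wild-type mice and 22 to 33 for knock-in mice. The genotype comparisons called 0 members under every alternative run. No paired analysis was possible because every array is a different mouse and no mouse number is shared between groups. Probes near background on many arrays, those of Bmp5, Bmp6, Bmpr1b, Inhba and Chrdl2, limit the size of their differences.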
